A study of Mus musculus with 2 samples.

Results

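The MHC class I presentation genes are 8 mouse genes, B2m, H2-K1, H2-D1, Tap1, Tap2, Tapbp, Psmb8 and Psmb9, found by symbol among the 32285 genes listed for each of 2 single-cell libraries, and all 8 were present in both. The later library came from lungs at postnatal day 10 (P10) and the earlier one from lungs at E18.5, shortly before birth. Both held sorted lung cells of mice labelled Cdh16CreERT2;tdTomatoflox/flox, while the series design gives the reporter as flox/wt. In these mice a tamoxifen-dependent Cre under Cdh16 switches on the red protein tdTomato, so that cells with Cdh16 activity and their descendants stay red. Tamoxifen was given from embryonic day 12.5 to the pregnant females, either injected (0.1 mg per kg of body weight) or fed (0.4 g per kg of food), and the labels do not tie a library to either route. Sorting took red cells within the CD326 (EpCAM) gate, and the labels call both libraries lung alveolar epithelial cells in batch 1 and both tissues embryonic lung, also at P10. Each age was 1 library, and how many animals went into it is not given, so no difference between the ages has a replicate check and no p-value is given.

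MHC class I molecules show peptides from inside a cell to CD8 T cells. H2-K1 and H2-D1 encode classical heavy chains, and B2m encodes beta-2 microglobulin, the light chain that every class I heavy chain pairs with. Psmb8 and Psmb9 encode catalytic subunits of the immunoproteasome, which take the places of Psmb5 and Psmb6 and change which peptides are cut. Tap1 and Tap2 form the pump that carries peptides into the endoplasmic reticulum, and Tapbp encodes tapasin, which holds the pump to empty class I molecules. Interferons raise all these genes in many cell types, and in the lung, epithelial cells at rest are known to carry less class I than leukocytes and endothelium.

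In GRCm38, B2m lies on chromosome 2 at 122147686 to 122153083 on the plus strand, and the other 7 lie on chromosome 17. H2-K1 spans 33996017 to 34000347 on the minus strand and H2-D1 spans 35262730 to 35267499 on the plus strand, 1262383 bases from start to start. Tapbp spans 33915899 to 33929292, Tap1 34187553 to 34197225, Psmb8 34197721 to 34201454 and Tap2 34203527 to 34216321, all on the plus strand. Psmb9 spans 34181987 to 34187764 on the minus strand, so that Tap1 and Psmb9 start 211 bases apart, overlap and are read in opposite directions. B2m overlaps Patl2 on the other strand, Tapbp overlaps Zbtb22 on its own strand, and Tap2, Tapbp and Psmb8 overlap antisense transcripts. No label or header says whether counting used strand, so values of these 6 genes could include reads of a neighbour, and reads of H2-K1 and H2-D1 could be shared with other class I genes of near-identical sequence.

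Promoter windows are printed for the genes of the surface molecule, B2m, H2-K1 and H2-D1, and for Tap1, whose window is shared with that of Psmb9. Each runs from 250 bases before to 50 bases after the RefSeq start (GRCm38.p6), 5′ to 3′ on the gene's strand, and RefSeq windows were found for 7 of the 8 members. Capitals mark matches on either strand to the kappa-B consensus, the interferon regulatory factor core GAANNGAAA, the gamma-activated site core TTCNNNGAA, the CCAAT box CCAAT and the cAMP-response core TGACG.
B2m (chr2:122147437-122147736, plus strand): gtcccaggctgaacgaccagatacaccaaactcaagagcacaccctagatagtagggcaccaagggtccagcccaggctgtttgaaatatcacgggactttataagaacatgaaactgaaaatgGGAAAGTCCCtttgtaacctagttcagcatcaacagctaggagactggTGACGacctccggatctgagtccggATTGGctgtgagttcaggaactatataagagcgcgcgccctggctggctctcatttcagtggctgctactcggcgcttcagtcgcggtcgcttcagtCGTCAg
H2-K1 (chr17:34000298-34000597, minus strand): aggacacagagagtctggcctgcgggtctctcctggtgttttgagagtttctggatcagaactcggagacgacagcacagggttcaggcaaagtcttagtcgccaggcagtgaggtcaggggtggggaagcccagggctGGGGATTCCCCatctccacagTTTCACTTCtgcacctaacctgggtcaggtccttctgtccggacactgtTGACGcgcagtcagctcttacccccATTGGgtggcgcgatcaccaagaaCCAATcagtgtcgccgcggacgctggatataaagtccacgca
H2-D1 (chr17:35262844-35263143, plus strand): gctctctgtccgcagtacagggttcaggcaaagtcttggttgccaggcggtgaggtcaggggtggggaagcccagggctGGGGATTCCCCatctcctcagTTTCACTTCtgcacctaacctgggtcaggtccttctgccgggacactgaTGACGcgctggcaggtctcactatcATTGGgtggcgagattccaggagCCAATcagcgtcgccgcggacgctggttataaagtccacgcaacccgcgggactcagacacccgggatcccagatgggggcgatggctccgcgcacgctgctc
Tap1 (chr17:34187306-34187605, plus strand): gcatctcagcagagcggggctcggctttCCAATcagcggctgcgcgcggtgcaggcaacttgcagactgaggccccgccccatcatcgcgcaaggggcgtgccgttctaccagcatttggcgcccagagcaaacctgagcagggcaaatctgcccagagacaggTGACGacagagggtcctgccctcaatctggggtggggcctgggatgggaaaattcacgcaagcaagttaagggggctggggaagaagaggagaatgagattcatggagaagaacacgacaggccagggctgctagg

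The windows of H2-K1 and H2-D1 held the same motifs in the same order. In both, the interferon regulatory factor core began 21 bases after the kappa-B match and TGACG began 70 bases after it. All 3 lay 60 bases further from the RefSeq start in H2-D1. The H2-D1 window begins at 35262844, after the gene start of 35262730 given above. Distances to the start and the end-to-end identity therefore depend on the annotated start. Aligned end to end the windows were 59.28% identical over 361 alignment columns, and over their best-matching stretch 90.35% identical over 228 columns. The kappa-B consensus, which overlapped itself in both heavy chains, was present in 3 of 7 members' windows (B2m, H2-K1 and H2-D1) and in 8.46% of all 32851 windows. The interferon regulatory factor core, spelled GAANNGAAA, was present in H2-K1 and H2-D1 and in 7.52% of all windows, and the gamma-activated site core in Psmb8 and in 8.30%. Other spellings were not searched. The B2m window holds gaaactgaaa, which has a longer gap than GAANNGAAA and was not counted. TGACG was present in 5 of 7 members' windows and 20.8% of all windows, and CCAAT in 6 of 7 and 37.4%. The Tap1 window shares 275 bases with the window of Psmb9, which runs the other way. These matches describe letters in these windows and say nothing of binding.

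After cells with under 500 genes, under 1000 UMIs (unique molecular identifiers, each 1 counted RNA molecule) or over 20% mitochondrial UMIs were left out, 14086 of 14503 barcodes remained at P10 and 12027 of 12739 at E18.5. Median depth was 10250.5 UMIs per cell at P10 and 8959 at E18.5, and 59 barcodes occurred in both libraries. Clusters were assigned to classes by marker genes, which gave 11156 epithelial, 422 endothelial, 486 mesenchymal and 1823 immune cells at P10, and 8894, 329, 764 and 1744 at E18.5. Cells of the last 3 classes go against the sorting gate and the cell type in the labels. AT2 marker genes, which mark surfactant-making alveolar cells, took 18.3% of epithelial UMIs at P10 and 8.78% at E18.5. They also took 9.59% of immune, 7.57% of endothelial and 7.58% of mesenchymal UMIs at P10. At E18.5 these shares were 3.99%, 4.78% and 3.29%. Levels in these 3 classes were not corrected for such alveolar RNA, and its part in comparisons with epithelial cells was not tested. Of the immune cells, 608 at P10 and 1341 at E18.5 lay in clusters with alveolar RNA. A level here is CPM, the UMIs of a gene per 1000000 UMIs summed over a class. Brackets give 95% intervals, which cover counting error only, and because UMIs are not divided by gene length a gene is compared across classes and not with another gene.

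**Figure D1:**
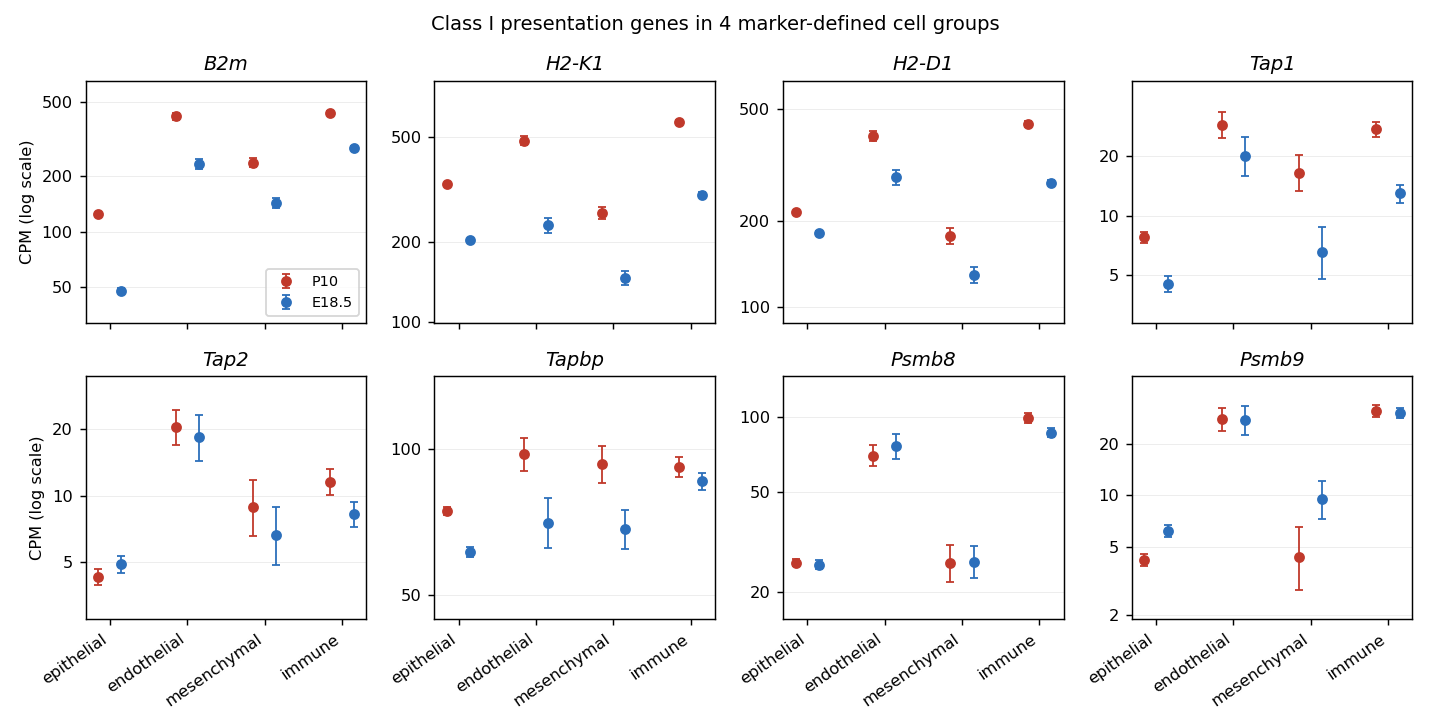
Level of each gene in CPM (log scale) in epithelial, endothelial, mesenchymal and immune cells at P10 (red) and E18.5 (blue); points are summed UMI counts of 1 library each and bars are exact Poisson 95% intervals. B2m in epithelial cells stands at 124 CPM at P10 and 48.0 CPM at E18.5, while Psmb8 in epithelial cells is at 26.2 and 25.8 CPM.

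In epithelial cells the surface molecule's genes were higher at P10, the light chain most. B2m stood at 124 CPM at P10 and 48.0 CPM at E18.5, a ratio of 2.59 (2.51 to 2.68). H2-K1 stood at 332 CPM at P10 and 203 CPM at E18.5, a ratio of 1.63 (1.61 to 1.66). The other heavy chain differed less: H2-D1 was at 216 CPM at P10 and 182 CPM at E18.5, a ratio of 1.18 (1.16 to 1.21). B2m was thus the 1 member of 8 at least 2 times higher at P10 in these cells, where 12.0% of the 8744 measured genes were that much higher and 15.3% that much lower. Measured means at least 10 CPM at either age, which 5 of the 8 members reached. The median log2 ratio was 0.28 over those 5 members and -0.02 over all measured genes. Shares of cells with a UMI moved the same way after every cell was thinned to 3000 UMIs: B2m was seen in 29.1% of 10950 thinned epithelial cells at P10 and 13.3% of 8034 at E18.5, and without thinning in 67.6% and 36.5%.

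Among the loading genes, the pump's subunits differed in direction in epithelial cells. Tap1 was at 7.76 CPM at P10 and 4.52 CPM at E18.5, a ratio of 1.72 (1.53 to 1.92), and Tap2 was at 4.31 CPM at P10 and 4.90 CPM at E18.5, a ratio of 0.879 (0.778 to 0.994). Both are under 10 CPM, and Tap2 went to the other side of 1 in cells with a Y-linked and no Xist UMI, with a log2 ratio of 0.22, and relative to genes of the same length, with 0.06. Tapbp was at 74.6 CPM at P10 and 61.2 CPM at E18.5, a ratio of 1.22 (1.18 to 1.26).

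The immunoproteasome genes had ratios near 1 or under it in epithelial cells. Psmb8 was at 26.2 CPM at P10 and 25.8 CPM at E18.5, a ratio of 1.02 with an interval of 0.968 to 1.07. Psmb9 was at 4.20 CPM at P10 and 6.15 CPM at E18.5, a ratio of 0.683 (0.608 to 0.766). Their intervals do not overlap those of B2m, H2-K1 or H2-D1.

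**Figure D2:**
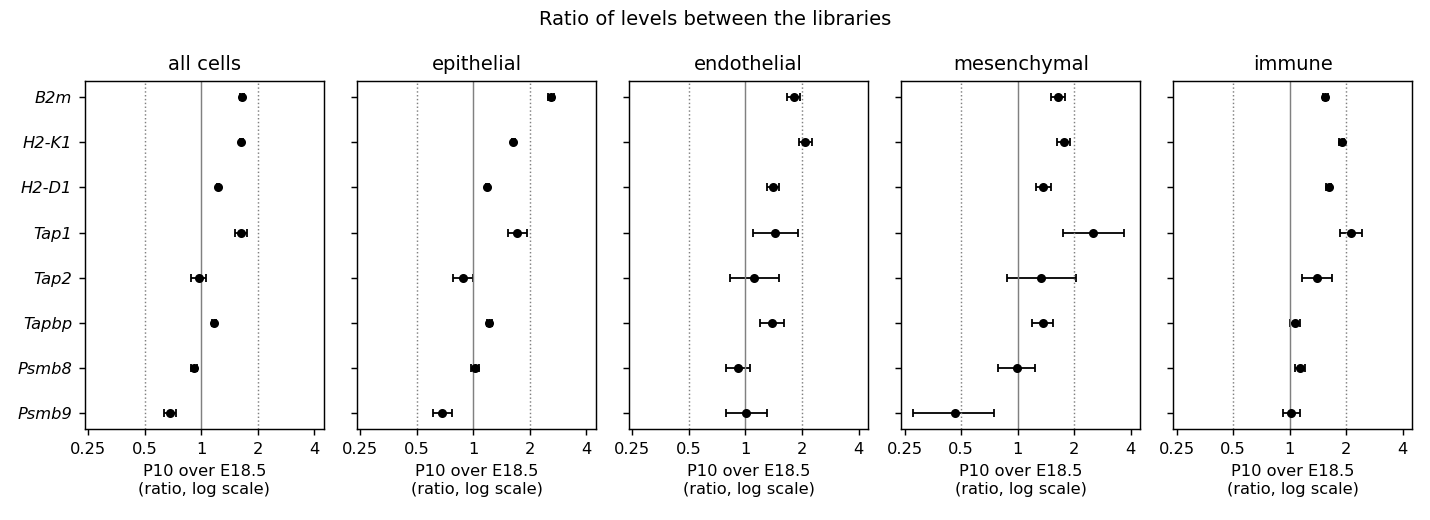
Ratio of the P10 level to the E18.5 level (log scale) for each gene in all cells and in 4 classes; points are ratios of summed counts, bars exact 95% intervals of counting error, the solid line is 1 and dotted lines are 0.5 and 2. B2m in epithelial cells lies at 2.59 and Tap1 in immune cells at 2.12, while Psmb9 in mesenchymal cells lies at 0.463.

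The mix of alveolar types differed between the ages, so the same ratios were taken within AT2-like cells, 9249 at P10 and 2799 at E18.5. B2m was at 121 CPM at P10 and 39.5 CPM at E18.5, a ratio of 3.07 (2.90 to 3.25), and was again the 1 member past 2 times, against 14.1% of 8409 measured genes higher and 10.5% lower. H2-K1 had a ratio of 1.60 and H2-D1 of 1.15, close to those over all epithelial cells. Tapbp had a ratio of 1.49 within AT2-like cells, and Tap2 one of 1.26 (1.03 to 1.56), on the other side of 1 from its ratio over all epithelial cells. At E18.5, AT1-like cells, which line the gas-exchange surface, held more Tap2 (7.15 CPM) than AT2-like cells (3.43 CPM). No cluster at P10 was AT1-like, and 315 cells there were of mixed AT1 and AT2 markers.

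AT1-like cells at E18.5 stood above the epithelial mean, which they are part of, for each of the 8 genes, by 1.07 times for H2-K1 to 1.46 times for Tap2. Tapbp in them was at 85.8 CPM, against 61.2 CPM over all epithelial cells. The interval for Tap1, 0.983 to 1.48, includes 1. The share of all genes above the epithelial mean in AT1-like cells is not given. AT2 marker genes took 1.07% of AT1-like UMIs and 8.78% of epithelial UMIs at E18.5. The part of that difference in these CPM ratios was not tested. Transitional-like cells at P10, led by Sprr1a, Areg and Sfn, were near the epithelial mean, at 0.932 to 1.14 times.

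Within AT2-like cells at P10 the peptide-cutting genes varied most between clusters, by 3.38 times for Psmb9 and 2.91 times for Psmb8. A cluster of 607 cells with Saa3, Orm1 and Lcn2, genes of the acute-phase response, in the lead held Psmb8 at 54.1 CPM (49.5 to 59.1), against a median of 24.2 CPM over the 6 AT2-like clusters. The same cluster was highest for 7 of the 8 members among them, with Psmb9 at 9.31 CPM, Tapbp at 119 CPM and H2-K1 at 389 CPM. B2m, the remaining member, was highest at 134 CPM in a cluster led by H2-Aa and Cd74, and across the 6 clusters it spanned only 1.21 times. The share of all genes that were highest in the Saa3-led cluster is not given, so the 7 of 8 has no background beside it. At E18.5 a cluster of 340 cells led by Sprr1a, Cbr3 and Gstm1 held B2m at 50.5 CPM and H2-K1 at 261 CPM, against medians of 38.1 and 198 CPM over 3 clusters. All 6 P10 clusters were above all 3 E18.5 clusters for B2m and H2-K1. These are descriptions, since the cells of a cluster were grouped by their own expression.

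**Figure D3:**
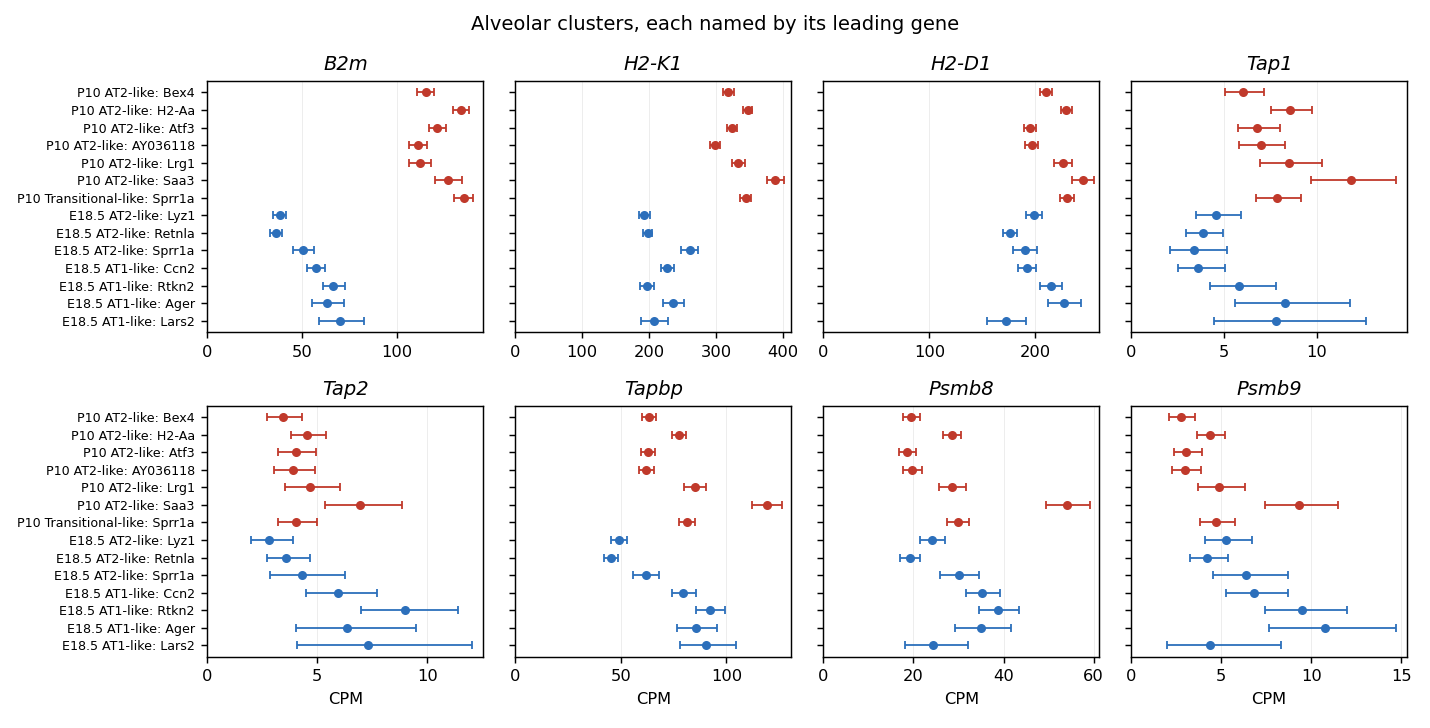
Level in CPM of each gene in every AT2-like, transitional-like and AT1-like cluster, P10 clusters (red) above E18.5 clusters (blue), each named by its leading gene; bars are exact Poisson 95% intervals. Among the AT2-like clusters the Saa3 cluster stands out for Psmb8 (54.1 CPM), Psmb9 and Tapbp, and B2m separates the ages without overlap.

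In immune cells the ratios were over 1 for all 8 members, with a median log2 ratio of 0.56, against 0.15 over 9451 measured genes. The interval for Psmb9, 0.918 to 1.13, includes 1. H2-K1 was at 569.7 CPM at P10 and 302 CPM at E18.5, a ratio of 1.89 (1.84 to 1.94), and B2m was at 435 CPM at P10 and 281 CPM at E18.5, a ratio of 1.55. Tap1 was at 27.4 CPM at P10 and 13.0 CPM at E18.5, and its ratio of 2.12 (1.85 to 2.43) made it the 1 member past 2 times, against 17.1% of measured genes higher and 10.4% lower. Without the clusters that carry alveolar RNA the log2 ratio of Tap1 was 0.57 in place of 1.08, and no member passed 2 times. The immune mix also differed: T or NK cell-like cells numbered 539 at P10 and 0 at E18.5, and B cell-like cells 346 at P10 and 36 at E18.5. A further 439 cells at E18.5, named other immune-like, had no matching class at P10, and 386 of them lay in clusters with alveolar RNA. They held 11603567 of the 27836094 immune UMIs at E18.5. B2m in them was at 155 CPM and Tap1 at 7.33 CPM, against 374 and 16.1 CPM in macrophage or monocyte-like cells at E18.5. Every other member was also lower in them. Within macrophage or monocyte-like cells, 635 at P10 and 1050 at E18.5, the median ratio was 1.07.

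In endothelial cells H2-K1 was at 484 CPM at P10 and 232 CPM at E18.5, a ratio of 2.08 (1.93 to 2.25), the 1 member past 2 times, where 14.2% of measured genes were that much higher and 8.45% lower. Its log2 ratio was 1.69 in cells with Xist but without Y-linked UMIs and 0.32 in cells with a Y-linked and no Xist UMI, against 1.06 over all endothelial cells. Psmb8 and Psmb9 in endothelium had ratios of 0.915 and 1.01, both with intervals that include 1. In mesenchymal cells Tap1 was at 16.5 CPM at P10 and 6.53 CPM at E18.5, a ratio of 2.53 (1.75 to 3.71) from 91 and 45 UMIs, the 1 member at least 2 times higher, where 13.8% of measured genes were. Psmb9 there was at 4.36 CPM at P10 and 9.43 CPM at E18.5, a ratio of 0.463 (0.277 to 0.749), from 24 and 65 UMIs, under 10 CPM at both ages, and 804 of 10050 measured genes were at least 2 times lower there. On the log2 scale this ratio was -1.11, and it lay between -1.77 and -0.21 over the alternatives, the value of -0.21 coming from cells thinned to 3000 UMIs, where Psmb9 was not 2 times lower. Immune markers in mesenchymal cells summed to 265 CPM at P10 and 703 CPM at E18.5, with none of the 11 at 0, and their part in the Psmb9 difference was not tested. Over all cells together no member was 2 times higher or lower, against 12.1% of 9177 measured genes that were higher and 13.5% that were lower.

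Within each library, immune and endothelial cells held more of most members than epithelial cells did. At P10, 6 of 8 members were at least 2 times higher in immune than in epithelial cells, against 16.2% of 9236 measured genes, and 5 of 8 in endothelial cells, against 21.2%. No member was 2 times lower in either class, against 0.520% of measured genes in immune and 4.38% in endothelial cells. At E18.5 the counts were 4 of 8 in immune cells, against 9.47%, and 5 of 8 in endothelial cells, against 14.3%, and again none was 2 times lower, against 3.07% and 3.43%. Without the clusters that carry alveolar RNA, the immune counts were 6 at both ages. Psmb9 had the widest gap at P10, 31.0 CPM in immune and 4.20 CPM in epithelial cells, a ratio of 7.39 (6.58 to 8.30), and at E18.5 it was 4.94 times higher in immune cells. B2m was 3.50 times higher in immune than in epithelial cells at P10 and 5.86 times at E18.5. Tapbp was close between them, 1.23 times higher in immune cells at P10 and 1.40 times at E18.5, and H2-K1 was 1.72 and 1.49 times higher.

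Endothelial cells were nearest the immune level. For Tap2 they were above it, at 20.4 CPM against 11.5 CPM in immune cells at P10, and at 18.3 CPM against 8.26 CPM at E18.5. Relative to epithelial cells, endothelial Tap2 was 4.72 times higher at P10 and 3.74 times at E18.5, and Tap1 was 3.72 and 4.44 times higher. Immune markers in endothelial cells were at a median of 4.93% of their immune level at P10 and 19.2% at E18.5, and the members at medians of 93.3% and 89.5%.

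Mesenchymal cells split the surface molecule's genes. B2m was higher in them than in epithelial cells, by 1.89 times at P10 and 2.98 times at E18.5, while H2-K1 was lower, at 0.780 times (0.739 to 0.822) and 0.724 times (0.679 to 0.771). H2-D1 was likewise lower, at 0.822 and 0.712 times. Tap1 and Tap2 were the 2 members at least 2 times higher in mesenchymal than in epithelial cells at P10, by 2.13 and 2.07 times. Tap2 was under 10 CPM in both classes, at 8.91 and 4.31 CPM. Of the 6 measured members 1 was thus that much higher, where 20.8% of measured genes were and 4.22% were 2 times lower. With median-of-ratios scaling neither Tap1 nor Tap2 passed 2 times. At E18.5 B2m was the 1 such member, where 15.4% of measured genes were that much higher and 4.47% that much lower.

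Free RNA from broken cells was gauged with the 11 general immune markers. In epithelial cells those markers stood at a median of 2.72% of their immune level at P10 (1.82% to 27.7%) and 3.09% at E18.5 (2.70% to 22.4%). The 8 members in epithelial cells stood at a median of 33.0% of their immune level at P10 (13.5% to 81.2%) and 47.1% at E18.5 (17.1% to 71.4%). For B2m the value was 28.6% at P10 and 17.1% at E18.5, against the marker medians given above. No class here is known to lack class I genes, so the shares of cells with a UMI have no empty class beside them.

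Among finer classes, T or NK cell-like cells at P10 held the highest B2m, 486 CPM (466 to 508), followed by B cell-like cells at 447 CPM, whose interval overlaps. Endothelial-like cells at P10 followed macrophage or monocyte-like cells, at 417 and 422 CPM with overlapping intervals. The lowest B2m values were those of E18.5 epithelium, from 62.4 CPM in AT1-like to 39.5 CPM in AT2-like cells, and 22.6 CPM in 54 erythroid-like cells, from 11 UMIs. T or NK cell-like cells also held H2-K1 at 789.9 CPM, 2.38 times the epithelial level, and Psmb8 at 126 CPM, 4.82 times. A cluster of 103 macrophages at E18.5 led by C1qa and Pf4 stood above every class mean for B2m, at 837 CPM (780 to 896), and for Psmb9, at 91.1 CPM, while the other 2 macrophage or monocyte-like clusters at that age held B2m at 322 and 345 CPM.

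Tapbp followed another order. Its highest level was in mesothelial-like cells, the lining of the lung surface, at 305 CPM in 33 cells at P10 and 207 CPM in 56 cells at E18.5, which is 4.08 times (3.52 to 4.71) and 3.38 times (2.84 to 3.99) the epithelial level. The same cells held B2m at 3.25 times the epithelial level at P10 and 2.76 times at E18.5, and H2-K1 at 1.58 and 1.25 times. H2-D1 in them was at 1.36 times the epithelial level at P10 and 0.727 times at E18.5. Tap1 was at 2.05 times at P10 and 3.22 times at E18.5 and Psmb9 at 2.28 and 2.37 times, from few UMIs, and both P10 intervals include 1, as does that of Tap2 at 2.22 times (0.811 to 4.86). Zbtb22, which overlaps Tapbp on its strand, was not separated from it here. Among the other classes with at least 50 cells Tapbp ranged from 98.2 CPM in macrophage or monocyte-like cells at P10 to 41.3 CPM in mixed airway cells at E18.5, and most neighbours in that order had overlapping intervals.

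**Figure D4:**
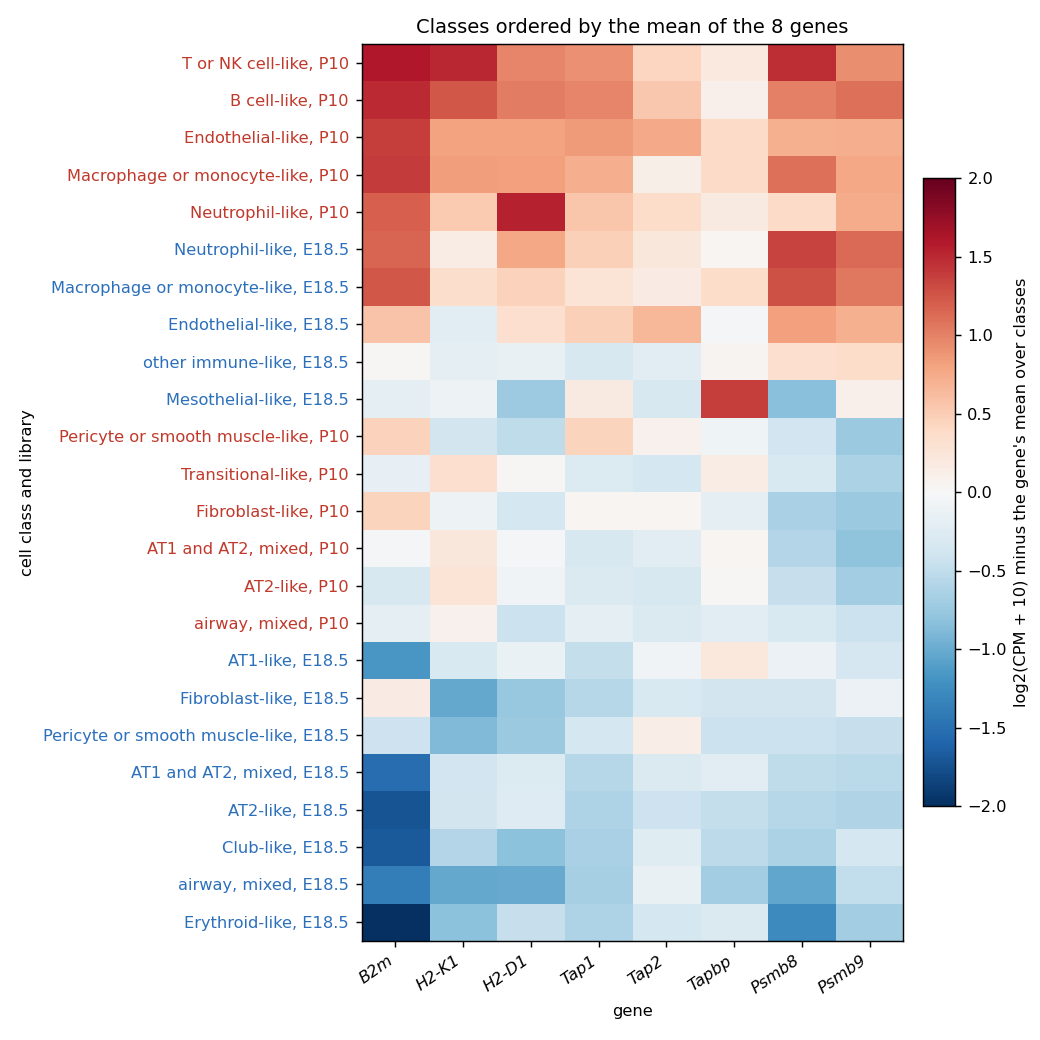
Log2(CPM + 10) of each gene minus its mean over the 24 classes of at least 50 cells, P10 classes in red and E18.5 classes in blue, ordered from highest to lowest mean of the 8 genes. T or NK cell-like, B cell-like and endothelial-like cells at P10 lead, the erythroid-like cells and 4 E18.5 epithelial classes lie at the bottom, and Tapbp is the highest of the 8 genes on this scale in the mesothelial-like cells at E18.5.

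The balance of the heavy chains was shifted towards H2-D1 in neutrophil-like cells at both ages and, to a like degree, in endothelial cells at E18.5. H2-K1 made up 37.2% (34.7 to 39.7) of H2-K1 and H2-D1 UMIs in neutrophil-like cells at P10 and 43.7% (41.3 to 46.1) at E18.5, against 60.6% and 52.7% in epithelial cells. Neutrophil-like H2-D1 at P10, 669 CPM, was the highest of any class. In T or NK cell-like cells at P10 the H2-K1 share was 63.6%. In endothelial cells the share was 54.7% at P10 and 44.8% (42.6 to 47.0) at E18.5, where the interval overlaps that of neutrophil-like cells.

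Immunoproteasome subunits were next set against the constitutive subunits they replace. Psmb8 made up 23.6% (22.9 to 24.2) of Psmb8 and Psmb5 UMIs in epithelial cells at P10 and 13.4% (12.9 to 13.9) at E18.5. Psmb8 itself had a ratio of 1.02 between the ages, and Psmb5 was at 85.1 CPM at P10 and 167 CPM at E18.5, a ratio of 0.511. Psmb9 likewise made up 3.52% of Psmb9 and Psmb6 UMIs at P10 and 2.53% at E18.5, with Psmb6 at a ratio of 0.487. In immune cells the Psmb8 share was 51.6% at P10 and 33.4% at E18.5, and the Psmb9 share 19.5% and 11.4%. Psmb10, set against Psmb7, differed by class: it made up 27.9% of the pair's UMIs in epithelial cells at P10 and 30.7% at E18.5, and 45.5% and 47.0% in immune cells. Its share was higher at P10 in endothelial cells, at 56.7% against 49.0% at E18.5, and in mesenchymal cells, at 39.8% against 33.3%.

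**Figure D5:**
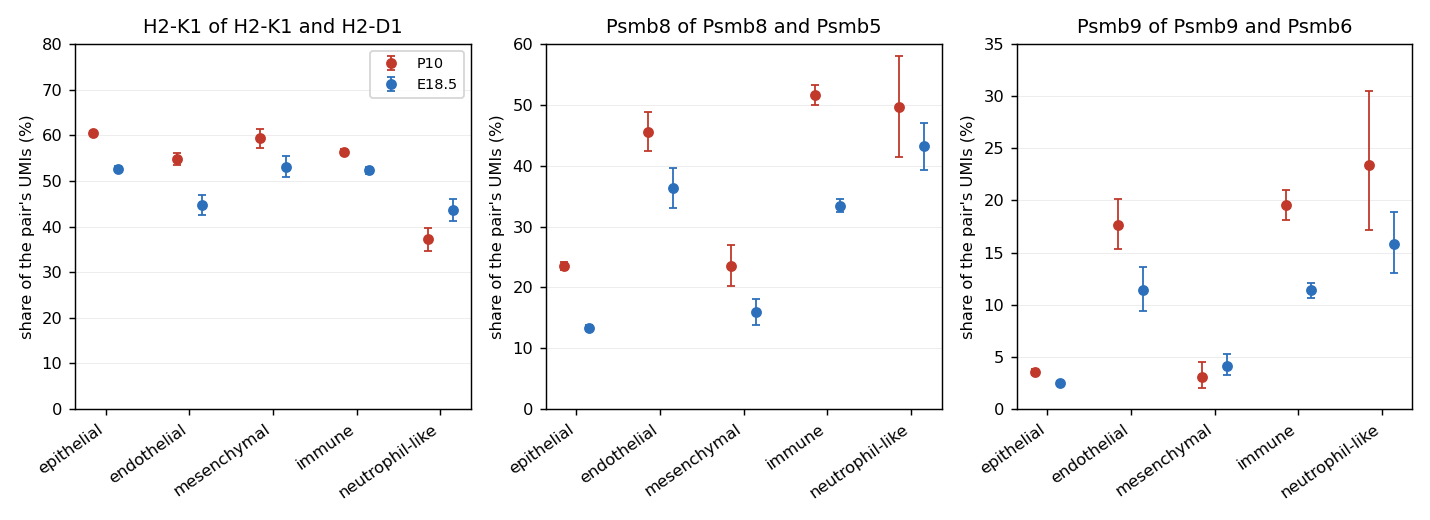
Share in percent of a pair's UMIs that belong to its first gene, for H2-K1 with H2-D1, Psmb8 with Psmb5 and Psmb9 with Psmb6, by class at P10 (red) and E18.5 (blue); bars are exact binomial 95% intervals. Neutrophil-like cells hold the lowest H2-K1 shares (37.2% and 43.7%), though at E18.5 their interval overlaps that of endothelial cells. The Psmb8 share is higher at P10 in each class drawn, though in neutrophil-like cells the intervals overlap (41.4% to 58.0% at P10, 39.4% to 47.1% at E18.5).

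Per cell, the 8 genes together took 0.0789% of epithelial UMIs at P10 and 0.0536% at E18.5, and 0.171% and 0.108% of immune UMIs. No member had a UMI in 0.950% of epithelial cells at P10 and 6.85% at E18.5. After thinning to 3000 UMIs those shares were 13.4% and 21.3%, and in immune cells 1.87% and 6.30%. All 8 members were seen together in 4 of 11156 epithelial cells at P10 and 1 of 8894 at E18.5.

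Of the 19 other genes of the class I pathway, 15 were measured in epithelial cells, none at least 2 times higher at P10 and 2 at least 2 times lower, with a median log2 ratio of -0.43. Over all measured genes 12.0% were higher and 15.3% lower, so the lower count is near that background. Those 2 were Psmb6, with a ratio of 0.487, and Rfxap, a subunit of a factor that binds MHC promoters, with 0.424. Irf1, an interferon-induced activator of class I genes, had a ratio of 1.75, and Nlrc5, the class I transactivator, was under 10 CPM at both ages, at 2.68 and 1.17 CPM. Among 32 interferon-response genes 14 were measured, of which 5 were at least 2 times higher and 2 lower, beside 12.0% higher and 15.3% lower among all measured genes. The higher ones were Ifi27l2a at 6.35 times, Stat2, which carries type I interferon signals, at 3.21 times, the antiviral gene Ifitm3 at 2.67 times, Rtp4 at 2.56 times and Parp14 at 2.03 times. Ifit2, at 0.0983 times, and Usp18, at 0.444 times, were the lower ones. Of 13 interferons and receptor genes 7 were measured, with none higher and 1 lower, against the same background, namely Ifngr2, a chain of the interferon-gamma receptor, at 0.455 times.

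MHC class II, which presents outside peptides to CD4 T cells, differed far more between the ages in epithelial cells than class I did. All 6 measured genes of 8 listed were at least 2 times higher at P10, against 12.0% of all measured genes. They were H2-Aa at 34.6 times, H2-Ab1 at 28.6 times, H2-Eb1 at 17.0 times, Cd74, the invariant chain, at 16.6 times, H2-DMb1 at 5.21 times and H2-DMa at 2.26 times. Outside the epithelium, 5 of 6 measured class II genes in endothelial, 5 of 5 in mesenchymal and 8 of 8 in immune cells were that much higher. Over all measured genes the shares were 14.2%, 13.8% and 17.1%. The median log2 ratio of class II between the ages was 4.07 in epithelial, 3.80 in endothelial, 4.67 in mesenchymal and 4.87 in immune cells. Within P10, its median log2 ratio over epithelial cells was -0.53 in endothelial, -0.84 in mesenchymal and 2.08 in immune cells. These classes carried AT2 marker RNA at P10, and the part of alveolar RNA in their class II levels was not tested. In the Saa3-led AT2-like cluster at P10, H2-Aa was at 290 CPM and Cd74 at 1645 CPM. Of 14 class Ib and class I-like genes, 3 were measured in epithelial cells and none was past 2 times either way. Over all measured genes 12.0% were higher and 15.3% lower.

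Across the 24 classes the members' levels varied together to unequal degrees. Pearson's r over log2(CPM + 10) for the 28 pairs ran from 0.22 (Tap2 with Tapbp) to 0.91 (Psmb8 with Psmb9), with a median of 0.74. B2m with Tap1 reached 0.89 and H2-K1 with H2-D1 0.84, whereas Tapbp was in each of the 7 lowest pairs. The genes whose pattern was most like the mean of the 8, out of 7233, were Trim30a (r = 0.91), Arhgap26, Ikbkb, Inpp5d, Osbpl8, Shisa5, Neurl3, Zcchc2, St8sia4 and Zc3hav1 (r = 0.88). Classes of 1 library share its depth and free RNA, so these values are descriptions over 24 points.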

How the data were processed

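Cells were profiled by 10x Genomics 3' single-cell RNA sequencing. The unit of the deposited matrices is the raw UMI count, from Cell Ranger 7.0.1 per the file headers; the submitters' processing notes name mm10 and Seurat 4.0.0, and no source used here says if intronic reads count. The members and gene lists were chosen with earlier results of these data known. Cells with at least 500 genes, 1000 UMIs and at most 20% mitochondrial UMIs were clustered per library (scanpy 1.11.5, leidenalg 0.10.2; 2000 variable genes without the 8 members, 30 components, 15 neighbours, resolution 1). Clusters were named "-like" from markers, by a rule set after clusters were seen. Scrublet marked 1 cell at P10 and 2 at E18.5 and so did not work: no doublet was removed, and the alternative on doublets rests on the same scores. Counts were summed per class (scipy 1.17.1) as CPM with exact Poisson, conditional binomial (ratios) and Clopper-Pearson (shares) 95% intervals; no test between libraries was run. Ratios were checked on simulated data. In the paragraphs on the other gene lists, the genes named are those measured and past 2 times in epithelial cells, up to 8 a list. Irf1 and Nlrc5 there, and H2-Q6, H2-Q7 and Ciita further on, were named outside this rule. Alternatives covered cell filters, class rules, depth, scaling, doublets, gene length, sex-linked UMIs and thresholds. Depth was 171205348 UMIs at P10 and 137837590 at E18.5.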

Additional observations from a re-analysis of the deposited data

Results flagged for a closer look

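Tap2, a subunit of the peptide pump, was singled out because its ratio between the ages lay on opposite sides of 1 in different cell classes. Its P10 over E18.5 ratio was 1.40 (1.16 to 1.69) in immune cells and 0.879 (0.778 to 0.994) in epithelial cells, and the difference between these ratios was not tested. Within AT2-like cells the ratio was 1.26, and within macrophage or monocyte-like cells 0.940 (0.723 to 1.22), so each lay on the other side of 1 from its whole class. Tap2 overlaps 2 antisense transcripts, and its level in epithelial cells is under 10 CPM at both ages.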

How the results depend on the processing

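All 29 member ratios past 2 times, of 96, kept their direction in the 354 alternatives run for them, and 327 of those 354 stayed past 2 times. Of 173 alternatives of the counts of members past 2 times, 136 stayed within 1.5 times of the reported count; the cause of the others was not tested unless the threshold itself changed. Counts at P10 over E18.5 are given first. At a threshold of 1.5 times they were 3 (all cells), 3 (epithelial), 3 (AT2-like), 2 (endothelial), 3 (mesenchymal) and 4 (immune). Relative to genes of the same length they were 2, 3, 3, 2, 3 and 3 in that order. In cells with Xist but without Y-linked UMIs they were 1 (all cells), 3 (endothelial), 3 (mesenchymal) and 2 (immune), and in cells with a Y-linked and no Xist UMI 2 (epithelial), 0 (endothelial) and 2 (mesenchymal). Classes from single cells, median-of-ratios scaling and the mean of single-cell CPM each left 0 in endothelial and 0 in immune cells, CPM without abundant genes left 0 in endothelial cells, and leaving out clusters with alveolar RNA left 0 in immune cells. Resolution 2 gave 2 in AT2-like cells, and thinning and leaving out the 5% highest Scrublet scores each gave 2 in mesenchymal cells. Mesenchymal over epithelial counts at P10 were 1 at resolution 0.5, 1 without the highest Scrublet scores and 0 under both other scalings, and at E18.5 the count was 2 at 1.5 times. The 11 other-list genes higher in epithelial cells became 17 at 1.5 times and 25 with no minimum CPM. Shares of all genes at 1.5 times or without that minimum are not given, so larger counts there are not read as results. No paired analysis was possible because each age has 1 library and the labels give no replicate numbers. Psmb9 in mesenchymal cells had a log2 ratio of -0.21 after thinning, against -1.11. With 1 library per age, age cannot be told apart from library. The sex mix of the cells also differed. Epithelial cells with Xist and with Y-linked UMIs numbered 5716 and 1913 at P10, and 3407 and 2138 at E18.5. In immune cells these numbers were 647 and 356 at P10, and 394 and 537 at E18.5. In mesenchymal cells they were 232 and 106 at P10, and 194 and 272 at E18.5. Outside the sex-linked alternatives above, sex was not held equal between the ages.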

Other observations

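H2-Q6 and H2-Q7, class Ib genes with near-identical sequences, were chosen after their values were seen. H2-Q6 was at 4.93 CPM (687 UMIs) in epithelial cells at P10 and 0.123 CPM (12 UMIs) at E18.5, and H2-Q7 at 6.26 CPM (873 UMIs) and 0.308 CPM (30 UMIs). How reads were split between these copies was not tested, and both stayed under 10 CPM. Ciita, the class II transactivator, was at 5.90 CPM in epithelial cells at P10 and 0.576 CPM at E18.5, also chosen after its value was seen.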
